A study of Mus musculus with 18 samples.

Results

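The AP-1 family of transcription factor genes was followed through 18 RNA sequencing libraries of mouse malignant peripheral nerve sheath tumor (MPNST) cells. The family was taken as 10 genes by symbol: the FOS genes *Fos*, *Fosb*, *Fosl1* and *Fosl2*, the JUN genes *Jun*, *Junb* and *Jund*, and the related *Atf3*, *Batf* and *Batf3*. All 10 were found among the 35275 genes of the count table, and 9 of them had enough reads to be tested. *Batf* had no read in any library.

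AP-1 is a dimer of basic leucine zipper (bZIP) proteins, most often 1 FOS and 1 JUN protein, that binds the DNA letters TGANTCA. FOS proteins cannot pair with each other and need a JUN partner, whereas JUN proteins also pair among themselves. Most family genes are immediate early genes, switched on within minutes by growth factor signals that pass through RAS, ERK and JNK, and NF1, the protein lost in these tumors, is a brake on RAS.

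The libraries came from 6 cell lines, each grown from a separate tumor, with 3 cultures per line. The 3 *Nf1*/*p53* dKO lines carried deletions of *Nf1* and *p53* (the mouse gene *Trp53*), and the 3 *Nf1*/*Cdkn2a* dKO lines deletions of *Nf1* and *Cdkn2a*, which encodes p16 and p19, so that loss of *Nf1* was common to both genotypes. The tumors were made in wild-type mice by injecting the sciatic nerve with an adenovirus carrying Cas9 under a CMV promoter and guide RNAs. Neither Cas9 nor the guides were restricted to a cell type. The cells were untreated, grew in medium with serum, and had been passaged repeatedly before the experiment. The authors state that passaging was meant to leave pure tumor cells. They also state that infiltrating fibroblasts and immune cells do not survive the making of a line. The levels below are thus those of growing cultures and not of tumors or of a timed stimulus. The comparison asked what loss of *p53* and loss of *Cdkn2a* did differently on the same *Nf1*-deleted background.

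Library totals ran from 19560535 to 28312207 counts. *Trp53*, checked first because it was the targeted gene, measured 94.1, 67.5 and 58.7 CPM (read counts scaled to the library size) in *Nf1*/*p53* dKO lines 1, 2 and 3 against 247, 246 and 185 CPM in their *Nf1*/*Cdkn2a* dKO counterparts. The log2 difference, taken throughout as *Nf1*/*Cdkn2a* dKO minus *Nf1*/*p53* dKO, was 1.62 (SE 0.23, adjusted p = 0.0361, edgeR quasi-likelihood test). With 1 line left out this call held in 1 of 6 fits (adjusted p = 0.0436 to 0.124). *Nf1* measured 70.0, 33.5 and 27.7 CPM in *Nf1*/*p53* dKO and 12.7, 38.3 and 16.2 CPM in *Nf1*/*Cdkn2a* dKO lines. *Cdkn2a* measured 363, 279 and 42.9 CPM in *Nf1*/*p53* dKO and 169, 392 and 285 CPM in the lines labelled as deleted for it (log2 difference 0.30, adjusted p = 0.83 in edgeR's test), so it was not lower on average in the lines labelled with its deletion. A transcript can persist after a guide has disrupted its reading frame, so the *Cdkn2a* level does not check the labels. The labels call the cells mesenchymal, and all 6 mesenchymal markers passed 1 CPM in at least 1 line, with summed levels of 8067 to 21982 CPM in *Nf1*/*p53* dKO and 10165 to 16991 CPM in *Nf1*/*Cdkn2a* dKO lines. Of the 6 Schwann cell markers 4 reached 1 CPM in some line, with a summed level of 2.84 to 68.3 CPM in *Nf1*/*p53* dKO and from 1.35 CPM up to less than the lowest of these in *Nf1*/*Cdkn2a* dKO lines. *Ngfr* made up most of the highest sum, with 64.3 CPM in *Nf1*/*p53* dKO line 2, while *Sox10* stayed at or under 0.099 CPM in every line, and the part of such cells in the results below was not tested. None of the 10 lymphoid markers reached 1 CPM (summed level 0.317 to 1.22 CPM over the 6 lines, *Cd8a* at 0). Of the myeloid and dendritic markers 6 of 9 did (summed 16.6 to 27.6 CPM in *Nf1*/*p53* dKO and 22.1 to 38.7 CPM in *Nf1*/*Cdkn2a* dKO). *Cd14* was the highest of these 9 in every line, at 7.86 to 27.9 CPM. Those that did not reach 1 CPM, *Itgam*, *Clec9a* and *Lyz2*, measured at most 0.212 CPM in any line. Of the endothelial markers 2 of 5 reached 1 CPM. *Tek*, an endothelial receptor, was called lower, at 0.41 to 1.08 CPM in *Nf1*/*p53* dKO and 0.06 to 0.08 CPM in *Nf1*/*Cdkn2a* dKO lines. *Cdh5*, the other, went the other way and was not called (log2 difference 1.61, adjusted p = 0.221 in edgeR's test). It measured 0.17 to 0.41 CPM in *Nf1*/*p53* dKO and 0.38 to 1.69 CPM in *Nf1*/*Cdkn2a* dKO lines. Of the 4 tested endothelial markers, 1 had a positive and 3 a negative log2 difference. The part of endothelial cells in the results below was not tested. In such bulk samples fewer expressing cells and less RNA per cell cannot be told apart.

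RefSeq promoters, covering 250 bases before to 50 bases after the start of a gene in GRCm38.p6, were found for 9 of the 10 genes, all but *Fosl1*. Those of 4 genes are printed because these genes carried the differences described below: the JUN genes *Jun* and *Junb*, which stood at opposite ends in *Nf1*/*p53* dKO line 3, and the FOS genes *Fosb* and *Fosl2*, which had the largest genotype differences of the family. Capitals mark TGACATCA and TTACCTCA, known as the AP-1 like elements of the *Jun* promoter, and TGACG, the core of the cyclic AMP response element, each searched on both strands.
*Jun* (chr4:95052173-95052472, minus strand): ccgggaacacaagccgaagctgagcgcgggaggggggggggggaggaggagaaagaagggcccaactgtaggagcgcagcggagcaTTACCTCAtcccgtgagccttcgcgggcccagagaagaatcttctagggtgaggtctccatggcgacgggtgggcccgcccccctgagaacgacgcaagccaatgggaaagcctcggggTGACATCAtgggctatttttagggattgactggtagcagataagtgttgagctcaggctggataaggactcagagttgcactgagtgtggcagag
*Junb* (chr8:84978699-84978998, minus strand): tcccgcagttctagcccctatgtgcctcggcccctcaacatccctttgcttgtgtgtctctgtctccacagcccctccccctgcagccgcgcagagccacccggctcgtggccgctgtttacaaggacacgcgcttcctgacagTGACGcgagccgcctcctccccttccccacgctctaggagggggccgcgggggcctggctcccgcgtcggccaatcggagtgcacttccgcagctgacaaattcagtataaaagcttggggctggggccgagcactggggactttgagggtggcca
*Fosb* (chr7:19309996-19310295, minus strand): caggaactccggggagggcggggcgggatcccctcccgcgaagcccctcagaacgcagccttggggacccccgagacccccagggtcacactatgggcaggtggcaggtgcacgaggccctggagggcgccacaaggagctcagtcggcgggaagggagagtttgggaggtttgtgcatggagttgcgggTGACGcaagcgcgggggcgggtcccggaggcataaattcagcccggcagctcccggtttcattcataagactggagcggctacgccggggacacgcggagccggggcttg
*Fosl2* (chr5:32136222-32136521, plus strand): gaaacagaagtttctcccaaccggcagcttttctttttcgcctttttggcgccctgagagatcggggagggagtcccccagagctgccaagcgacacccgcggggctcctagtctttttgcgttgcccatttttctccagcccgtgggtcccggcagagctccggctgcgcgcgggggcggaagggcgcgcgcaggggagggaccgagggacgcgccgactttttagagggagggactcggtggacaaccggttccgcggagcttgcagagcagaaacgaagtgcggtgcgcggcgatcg
The *Jun* promoter held TGACATCA at -45 to -38 and TTACCTCA at -164 to -157, counted in bases from the start, motifs that stood in 3.76% and 0.851% of 27025 RefSeq promoters. *Fosb* held TGACG at -60 to -56 and *Junb* at -106 to -102. *Fos*, *Atf3* and *Batf* also held TGACG, which 21.02% of all promoters held. The *Jund* window (chr8:70697489-70697788) ends before 70698949, where the gene used for counting starts, so it is not the promoter of that gene model. The windows of *Fosl2*, *Batf3* and *Atf3* lie inside the genes used for counting. Those genes start at 32135801, at 191097847 and, on the minus strand, at 191218039. The sequence TGANTCA was in none of the 9 promoters and in 7.93% of all promoters, and the full element TGACGTCA, which contains TGACG, was in none of the 9 and in 1.88% of all. *Fosl2* held none of the 5 letter patterns in this window. A match is a run of letters and not evidence of binding.

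The genotype comparison of the family gave no call. In edgeR's quasi-likelihood test on the 6 lines, 0 of the 9 tested genes passed an adjusted p of 0.05, against 1.8% of all 15207 tested genes (97 genes or 0.638% higher and 177 or 1.16% lower in *Nf1*/*Cdkn2a* dKO). At an unadjusted p under 0.05 there were 3 of 9, *Fosb*, *Fosl1* and *Fosl2*, each with higher values in *Nf1*/*Cdkn2a* dKO, against 22.4% of all genes in either direction and 9.81% higher. In 3 of 9 genes, *Fosl1*, *Fosl2* and *Jun*, every *Nf1*/*Cdkn2a* dKO line lay above every *Nf1*/*p53* dKO line, as in 14.8% of all genes, and in 1, *Batf3*, every line lay below, as in 16.6%. With levels scaled to raw total counts, *Fosl2* was left alone in the first group, and this scaling also moved the median log2 difference of all genes by -0.13. The median log2 difference of the 9 genes was 0.42, and that of all tested genes -0.02. Called genes of the family numbered 1 with DESeq2 on the 6 lines (*Fosl2*, adjusted p = 0.0012), 3 with limma-voom on cultures under a random line effect (*Fosb*, *Fosl2* and *Jun*), and 5 with edgeR or DESeq2 on the 18 cultures as separate samples, while these fits called 14.3%, 16.6%, 46.5% and 48.9% of all genes.

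**Figure D1:**
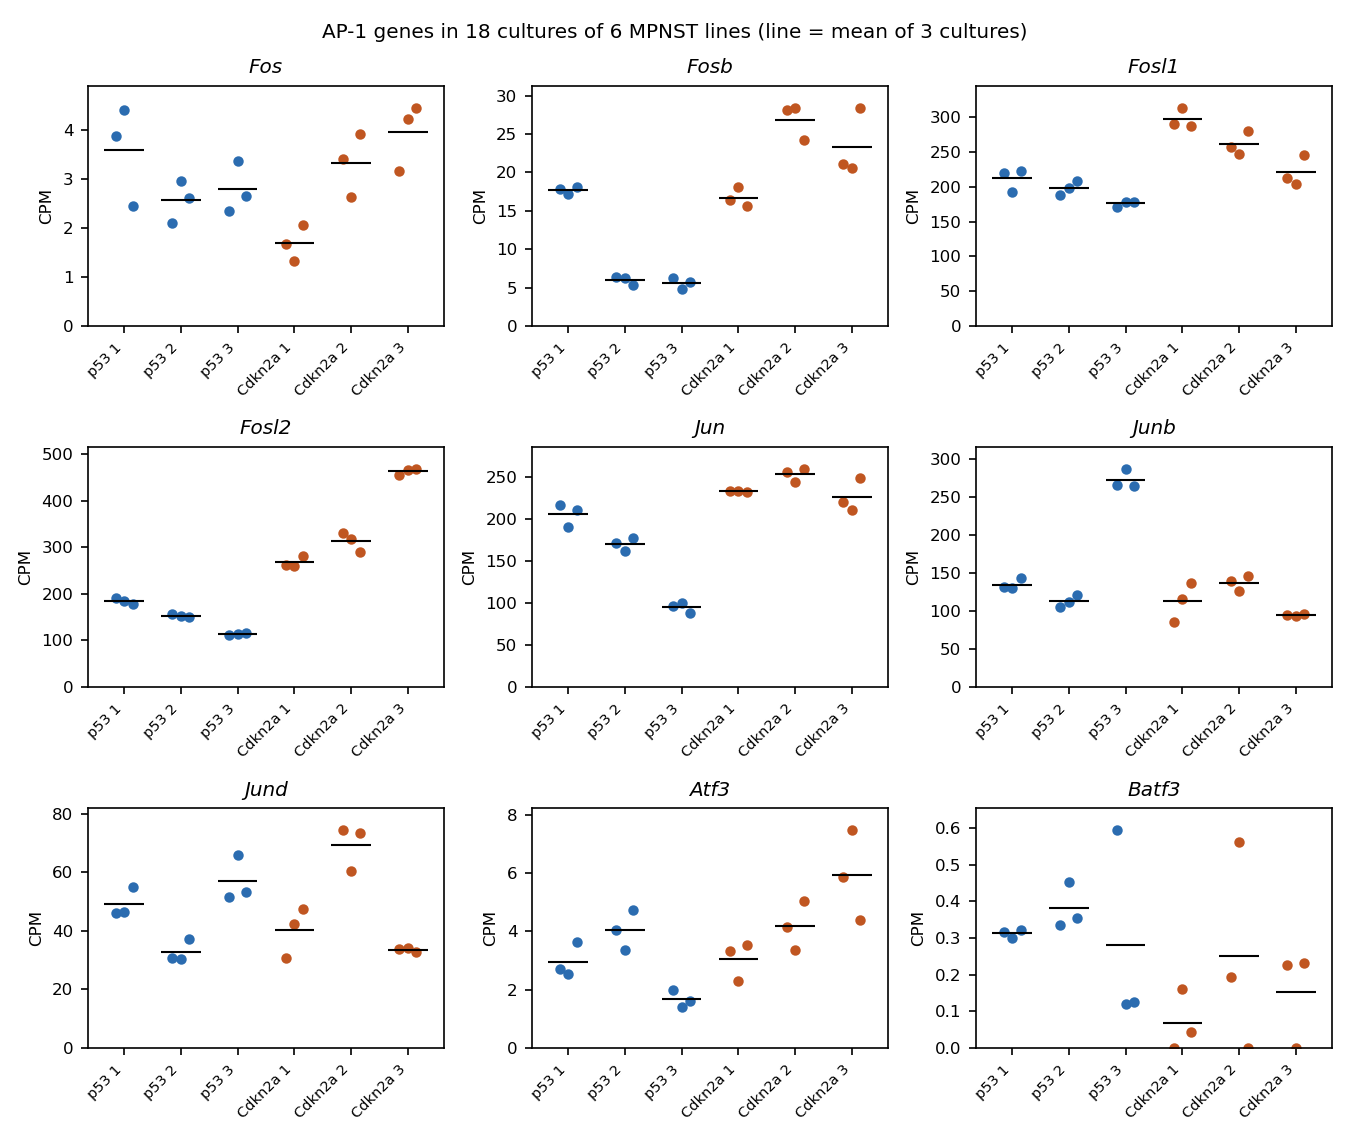
CPM of 9 AP-1 genes in 18 cultures (points; blue *Nf1*/*p53* dKO, orange *Nf1*/*Cdkn2a* dKO) of 6 lines on the horizontal axis, with the mean of each line as a black line and vertical axes starting at 0. *Fosl2* was higher in every *Nf1*/*Cdkn2a* dKO culture than in any *Nf1*/*p53* dKO culture, and *Junb* stood at 264 to 287 CPM in the cultures of *Nf1*/*p53* dKO line 3 and at or under 146 CPM elsewhere.

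Among the FOS genes, *Fosl2* had the lowest p-value. *Fosl2* encodes FRA-2, a FOS protein without the transactivation domain of FOS itself. It measured 184, 153 and 114 CPM in *Nf1*/*p53* dKO lines 1, 2 and 3, and 269.7, 316 and 466 CPM in *Nf1*/*Cdkn2a* dKO lines 1, 2 and 3. The genotypes did not overlap even by culture, where the highest *Nf1*/*p53* dKO culture had 191 CPM and the lowest *Nf1*/*Cdkn2a* dKO culture 261 CPM. Means were 150.3 ± 35.2 and 350.3 ± 103 CPM (SD, n = 3 lines), a log2 difference of 1.22 (SE 0.27, 95% interval 0.57 to 1.87), with an adjusted p of 0.0717 in edgeR's test. Leaving out single lines gave log2 differences from 0.97 to 1.39 and adjusted p from 0.0946 to 0.159. The lines also differed within each genotype, and all 5 steps in the order of the 6 lines separated the ranges of their cultures, which no other gene of the family did. The share of all genes with cultures apart in this way, or between genotypes, was not counted.

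*Fosb*, an immediate early gene, split the *Nf1*/*p53* dKO lines. It measured 17.6 CPM in line 1 and 5.95 and 5.55 CPM in lines 2 and 3, against 16.7, 27.1 and 23.5 CPM in *Nf1*/*Cdkn2a* dKO lines 1, 2 and 3. *Nf1*/*p53* dKO line 1 thus lay just above *Nf1*/*Cdkn2a* dKO line 1, and the ranges of their cultures overlapped. The log2 difference between genotypes was 1.21 (SE 0.50, 95% interval 0.02 to 2.40), at an adjusted p of 0.218 in edgeR's test. Without *Nf1*/*p53* dKO line 1 it was 1.96 (adjusted p = 0.0562). Over all fits with 1 line left out it ran from 0.94 to 1.96, with adjusted p from 0.0562 to 0.409 in the same test.

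*Fosl1* encodes FRA-1, which like FRA-2 lacks that domain. Its levels were 209, 198 and 176 CPM in *Nf1*/*p53* dKO and 297, 261 and 222 CPM in *Nf1*/*Cdkn2a* dKO lines 1, 2 and 3. Lines of the genotypes did not overlap, but cultures did, with up to 224 CPM in *Nf1*/*p53* dKO and down to 205 CPM in *Nf1*/*Cdkn2a* dKO. The log2 difference was 0.42 (SE 0.16, 95% interval 0.04 to 0.80, adjusted p = 0.19 in edgeR's test). *Fosl1* shares 1163 bases, 57.2% of its annotated exons, with *Ccdc85b* on the opposite strand, and whether counting used the strand is not given in the sources used here. *Ccdc85b* itself measured 46.2, 49.5 and 41.0 CPM in *Nf1*/*p53* dKO and 55.4, 41.5 and 82.0 CPM in *Nf1*/*Cdkn2a* dKO lines, an order unlike that of *Fosl1*. The part of such reads in the *Fosl1* counts was not tested.

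*Fos*, the founding member and a gene that is induced and lost again within hours of a stimulus, was scarce in these growing cells. It measured 3.61, 2.56 and 2.80 CPM in *Nf1*/*p53* dKO and 1.72, 3.30 and 3.96 CPM in *Nf1*/*Cdkn2a* dKO lines, from 25 to 133 counts per library. The lowest and the highest line were both *Nf1*/*Cdkn2a* dKO. The log2 difference was 0.00 (SE 0.40, 95% interval -0.95 to 0.95, adjusted p = 0.998 in edgeR's test), so differences of up to about that interval were not detectable.

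Among the JUN genes, *Jun* and *Junb* were furthest apart in *Nf1*/*p53* dKO line 3. *Jun*, the JUN protein with the strongest activity and a target of JNK, measured 203, 169.7 and 94.6 CPM in *Nf1*/*p53* dKO and 233, 253 and 227 CPM in *Nf1*/*Cdkn2a* dKO lines. The *Nf1*/*Cdkn2a* dKO lines were close together and all above, while line 3 was far below the other *Nf1*/*p53* dKO lines. Means were 156 ± 55.5 and 238 ± 13.5 CPM (SD, n = 3 lines), with a log2 difference of 0.61 (SE 0.28, 95% interval -0.06 to 1.28, adjusted p = 0.256 in edgeR's test). Without *Nf1*/*p53* dKO line 3 the log2 difference was 0.36. *Jun* lies 5.75 Mb from *Cdkn2a* on chromosome 4, shares 232 exon bases with the antisense gene *Junos*, and *Junos* measured 4.41 to 13.2 CPM over the lines.

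*Junb*, a JUN protein that can restrain JUN activity, measured 133, 112 and 272 CPM in *Nf1*/*p53* dKO and 114, 137 and 94.8 CPM in *Nf1*/*Cdkn2a* dKO lines. Only line 3 of *Nf1*/*p53* dKO stood apart, and the other 5 lines overlapped between genotypes. The log2 difference was -0.58 (SE 0.35, 95% interval -1.43 to 0.27, adjusted p = 0.377 in edgeR's test) and -0.09 without that line. The ratio of *Junb* to *Jun* CPM was 2.77, 2.89 and 2.99 in the cultures of line 3 and 0.367 to 0.689 in the other 15 cultures.

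*Jund*, the JUN gene that most cells express steadily, did not follow the genotype. It measured 48.8, 32.6 and 57.1 CPM in *Nf1*/*p53* dKO and 40.5, 69.7 and 33.7 CPM in *Nf1*/*Cdkn2a* dKO lines, and each genotype had both high and low lines. The log2 difference was 0.06 (SE 0.33, 95% interval -0.74 to 0.85, adjusted p = 0.938 in edgeR's test), and it became -0.08 with levels scaled to raw total counts. *Jund* shares 877 exon bases, 52.6% of its exons, with the antisense gene *Gm11175*, which had no count in any library.

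*Atf3*, a bZIP repressor induced by stress that pairs with JUN proteins, was about as scarce as *Fos*. It measured 2.91, 4.05 and 1.66 CPM in *Nf1*/*p53* dKO and 3.10, 4.15 and 5.93 CPM in *Nf1*/*Cdkn2a* dKO lines. The genotypes overlapped, with *Nf1*/*p53* dKO line 3 lowest and *Nf1*/*Cdkn2a* dKO line 3 highest. The log2 difference was 0.61 (SE 0.44, 95% interval -0.43 to 1.66, adjusted p = 0.45 in edgeR's test). It was 0.34 without either of these lines and 0.95 without *Nf1*/*p53* dKO line 2.

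The BATF genes, known from lymphocytes and dendritic cells, were absent or near the limit of detection. *Batf* had 0 counts in all 18 libraries, which allows 3 counts, or up to 0.106 to 0.153 CPM by library. *Batf3* measured 0.31, 0.38 and 0.28 CPM in *Nf1*/*p53* dKO and 0.06, 0.26 and 0.16 CPM in *Nf1*/*Cdkn2a* dKO lines, from 0 to 14 counts per library and 0 in 3 libraries, all 3 of them *Nf1*/*Cdkn2a* dKO. Lines did not overlap, but cultures did, and the log2 difference was -0.997 (SE 0.58, 95% interval -2.37 to 0.38, adjusted p = 0.354 in edgeR's test). Of the dendritic markers, *Clec9a* stayed at or under 0.18 CPM, *Flt3* measured 0.03 to 1.03 CPM and *Xcr1* 0.92 to 2.28 CPM. *Itgax*, which encodes CD11c, was higher in *Nf1*/*Cdkn2a* dKO lines, unlike *Batf3*. It measured 0.12, 0.35 and 0.03 CPM in *Nf1*/*p53* dKO and 3.03, 1.04 and 1.94 CPM in *Nf1*/*Cdkn2a* dKO lines (log2 difference 3.58, adjusted p = 0.092 in edgeR's test). Within *Nf1*/*p53* dKO both genes had the same order of lines. *Batf3* had only 24, 27 and 20 counts in these lines and was not called among them (adjusted p = 0.875 in edgeR's test). Its order there is thus not established. The part of dendritic cells in the *Batf3* level was not tested. These intervals and limits cover counting error only where they come from counts alone.

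**Figure D2:**
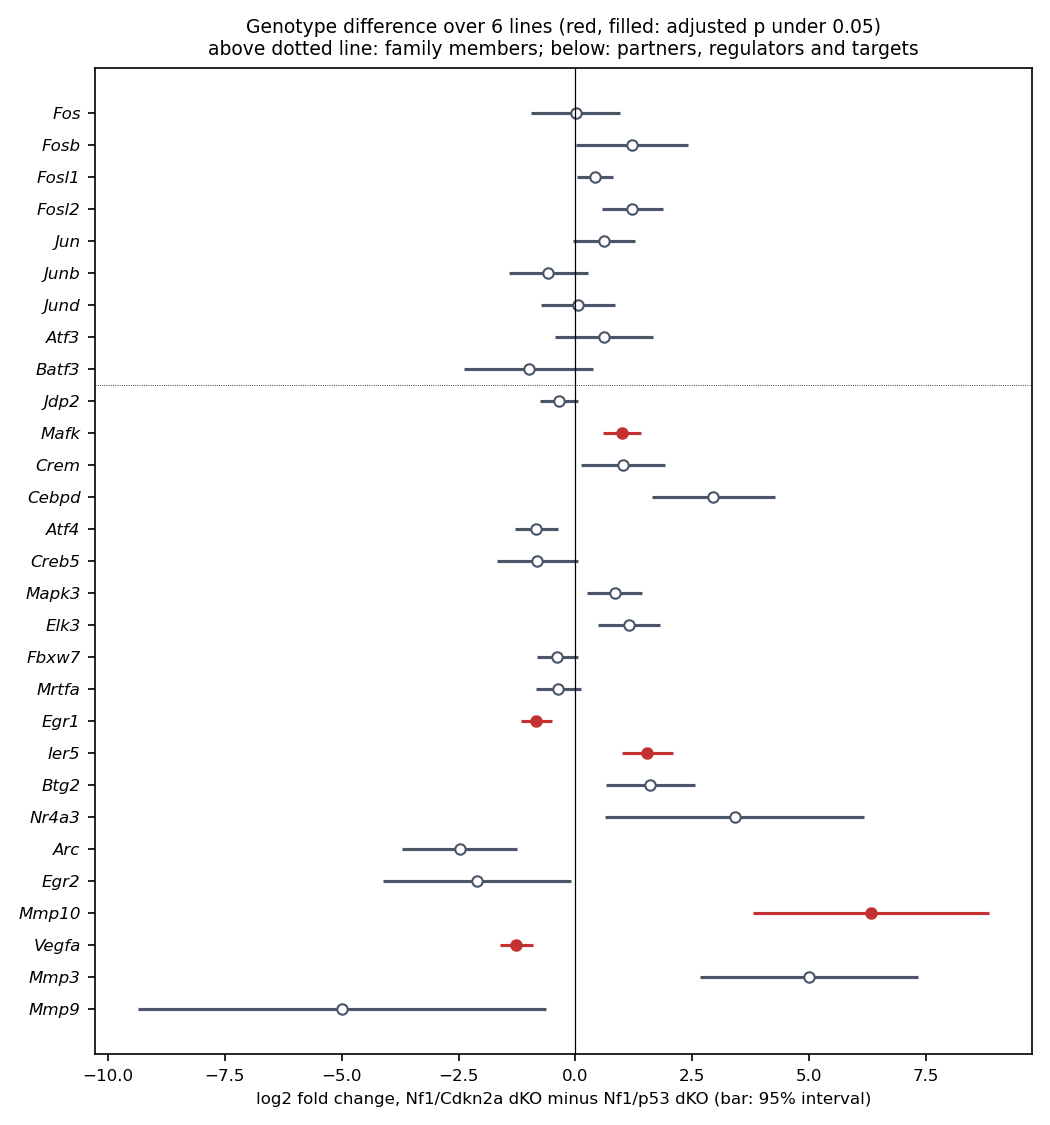
Log2 fold change of *Nf1*/*Cdkn2a* dKO over *Nf1*/*p53* dKO (points, horizontal axis, with 95% intervals as bars) for the 9 tested AP-1 genes above the dotted line and for *Jdp2* and the named genes of 4 related lists below it. The intervals of *Fosb*, *Fosl1* and *Fosl2* exclude 0, but none of the 9 is filled red, the mark of an adjusted p under 0.05.

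Lines of the same genotype differed in most of the family, as they did in most genes. In edgeR's test among the 3 lines on their 3 cultures each, 7 of 9 genes were called among *Nf1*/*p53* dKO lines, where 73.2% of all 14690 tested genes were called, and 7 of 9 among *Nf1*/*Cdkn2a* dKO lines, where 56.8% were. *Batf3* was called in neither (adjusted p = 0.875 and 0.322). *Fos* was not called in *Nf1*/*p53* dKO (adjusted p = 0.187) and *Jun* not in *Nf1*/*Cdkn2a* dKO (adjusted p = 0.085), and the difference between genotypes in this respect was not tested. The largest line effect by p-value in *Nf1*/*p53* dKO was that of *Jun*, which was lower by 1.12 on the log2 scale in line 3 than in line 1 (log2 difference -1.12, adjusted p = 1.76e-13), and *Junb* was higher there by 1.02 (adjusted p = 1.35e-11). In *Nf1*/*Cdkn2a* dKO it was that of *Fosl2*, higher by 0.79 in line 3 than in line 1 (adjusted p = 5.97e-12). Each of these p-values is for any difference among the 3 lines of a genotype, and not for line 3 against line 1. Nothing in the labels tells how the cultures of a line were separated, so these p-values measure only the spread between these cultures.

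The variation of log2(CPM + 1) over the 18 cultures was split into shares for genotype, line within genotype, and culture within line. Genotype took 78.3% for *Fosl2*, 59.5% for *Fosl1*, 57.8% for *Fosb* and 48.3% for *Jun*, where the median of all genes was 24.3%. *Junb* and *Atf3* were near that median with 25.1% and 26.2%. For *Jund* and *Fos* the share was 0.00867% and 0.205%, and the line took 86.4% and 69.8%. The share for culture was lowest for *Fosl2*, at 0.419%, and highest for the scarce *Batf3*, at 63.4%. These are shares of the variation of each gene and not sizes of the differences between cultures.

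With levels taken per kilobase of all exon bases, *Fosl1* was highest in the family in 5 of the 6 lines, and *Junb* in *Nf1*/*p53* dKO line 3. On the scale of CPM per kilobase of exon, *Fosl1* had the highest level of the FOS genes in each of the 6 lines, 86.7 to 103 in *Nf1*/*p53* dKO and 109 to 146 in *Nf1*/*Cdkn2a* dKO. *Fosl2* followed with 11.8 to 19.0 and 27.9 to 48.1, while *Fosb* reached 4.34 and *Fos* 1.68 at most. The 4 FOS genes summed to 126, 115 and 100.5 CPM per kilobase in *Nf1*/*p53* dKO and 177, 167 and 163 in *Nf1*/*Cdkn2a* dKO lines 1, 2 and 3, with no overlap. *Fosl2* made up 11.7 to 15.03% of that sum in *Nf1*/*p53* dKO and 15.7, 19.5 and 29.5% in *Nf1*/*Cdkn2a* dKO lines, and *Fosl1* made up 67.1 to 86.2% over all 6.

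The JUN genes summed to 151, 122 and 182 CPM per kilobase in *Nf1*/*p53* dKO and 147, 181 and 133 in *Nf1*/*Cdkn2a* dKO lines, and the genotypes overlapped. *Jun* led in 5 lines with 42.2 to 53.7% of the sum, and *Junb* led in *Nf1*/*p53* dKO line 3 with 64.9%, where *Jun* made up 16.3%. Leaving exon bases shared with genes of the other strand out of the lengths, with the counts kept as they were, could only raise the genes that have such bases. It raised *Jund* from 18.1 to 30.1% of the JUN sum in *Nf1*/*p53* dKO (mean of 3 lines) and *Fosl1* from 84.1 to 92.5% of the FOS sum. In *Nf1*/*Cdkn2a* dKO line 2 it put *Jund* (37.0%) ahead of *Jun* (35.9%). In *Nf1*/*p53* dKO line 3 it put *Fosl1* (203 CPM per kilobase) ahead of *Junb* (128 CPM per kilobase), so the highest gene there depended on the length used.

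**Figure D3:**
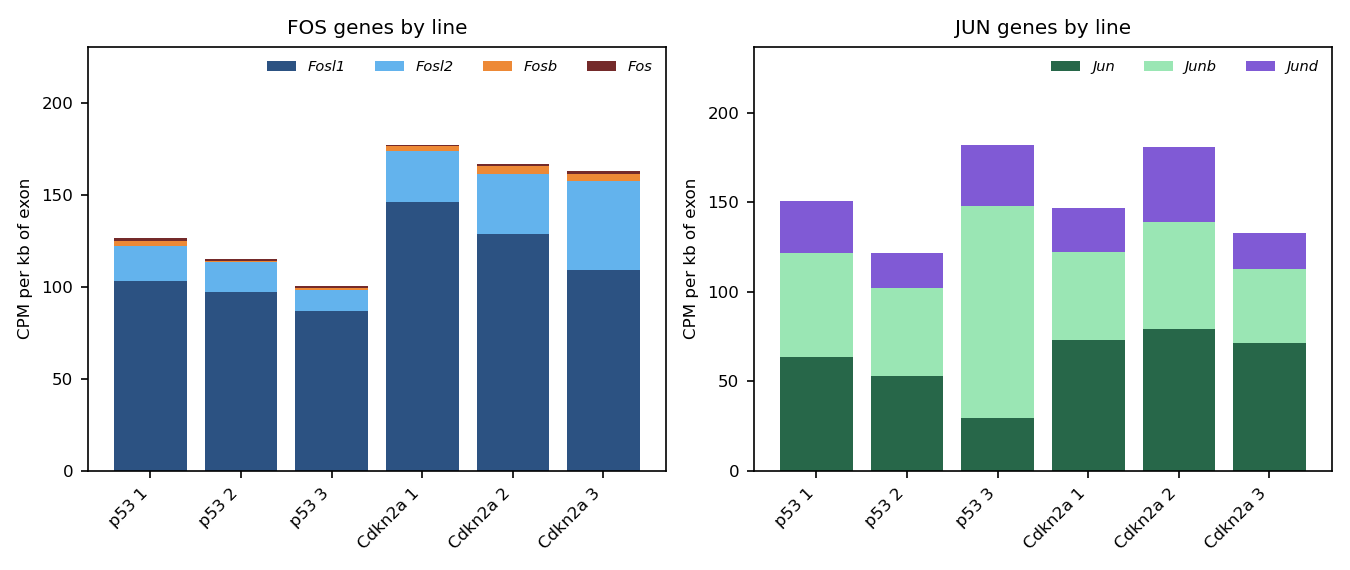
CPM per kilobase of exon (vertical axis, from 0) of the FOS genes and of the JUN genes, stacked by line. The FOS sum was 100.5 to 126 in *Nf1*/*p53* dKO and 163 to 177 in *Nf1*/*Cdkn2a* dKO lines, and *Junb* took the largest part of the JUN sum in *Nf1*/*p53* dKO line 3 alone.

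Several family members shared an order over the cultures. Over the 18 cultures, which share lines and genotypes, Pearson's r of log2(CPM + 1) was 0.86 between *Fosb* and *Fosl2*, 0.84 between *Fosb* and *Jun*, 0.81 between *Fosl2* and *Jun* and 0.79 between *Fosl1* and *Jun*. *Junb* ran the other way, with r of -0.80 to *Jun*, -0.74 to *Atf3* and -0.70 to *Fosl2*. After the mean of each line was removed, r was 0.91 between *Junb* and *Jund* and 0.72 between *Fosl1* and *Jun*, while that of *Fosb* and *Fosl2* was 0.20 and that of *Junb* and *Jun* was 0.21. *Junb* and *Jund* thus varied together from culture to culture, and *Jun* and *Junb* were opposed only between lines. In *Nf1*/*p53* dKO line 3 *Jun* was lowest, at 94.6 CPM, and *Junb* highest, at 272 CPM. The other lines had 169.7 to 253 CPM of *Jun* and 94.8 to 137 CPM of *Junb*, and r without line 3 was not computed. These values are descriptions of 18 cultures of 6 lines.

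The genes most like each member were sought among 12277 others with a mean of at least 1 CPM, by the same r over 18 cultures. For *Fosl2* they were *Elk3* (r = 0.99), an ETS factor that partners SRF and is itself a target of ERK, *Ptprk* (r = 0.99) and *Dusp1* (r = 0.99), a phosphatase of MAP kinases. *Elk3* measured 137, 122 and 91.8 CPM in *Nf1*/*p53* dKO and 207, 211 and 358 CPM in *Nf1*/*Cdkn2a* dKO lines, the same order of lines as *Fosl2*. For *Jun* they were *Rgs16*, *Akt1* and *Igfbp4* (r = 0.98 to 0.99), and *Rgs16* measured 12.4 CPM in *Nf1*/*p53* dKO line 3 and 136 to 420.5 CPM in the other lines. *Elmod1*, *Cdh6* and *Bloc1s6* were closest to *Fosb* (r = 0.97 each), and *Vmn2r79*, *Rims2* and *Eomes* to *Fosl1* (r = 0.93 to 0.94). For *Atf3* they were *Marc2*, which the count table lists under a name turned into a date, *Fam174a* and *Ckb* (r = 0.88 to 0.91). For *Fos* they were *Cntnap1*, *Slc16a7* and *Ccdc62* (r = 0.82 to 0.87).

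The genes most like *Junb* and *Jund* lay on their own chromosome. *Junb* and *Jund* are 14.3 Mb apart on chromosome 8, and the 3 closest genes of *Junb*, *Ndufb7*, *D8Ertd738e* and *Nacc1* (r = 0.96 to 0.98), start at 83.6, 84.2 and 84.7 Mb of chromosome 8, where *Junb* spans chr8:84974484-84978718 in GRCm38. Those of *Jund*, *Got2*, *Ssbp4* and *Gipc1* (r = 0.90 to 0.93), are on chromosome 8 too. Of the 20 genes most like *Junb*, 11 were on chromosome 8, and of those most like *Jund*, 9 were, while 5.43% of all compared genes are on that chromosome. The count was 0 of 20 on the own chromosome for *Fos*, *Fosb*, *Fosl1*, *Fosl2* and *Jun*, and 2 of 20 for *Atf3*.

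The neighbors of *Junb* moved with it in *Nf1*/*p53* dKO line 3. There *Junb* was higher by 1.21 on the log2(CPM + 1) scale than in the mean of the other 5 lines, and of the 62 genes within 2 Mb with a mean of at least 1 CPM, 59 were also higher, by a median of 0.83. The median of all 667 compared genes of chromosome 8 in that line was -0.01, and that of all genes 0.01. *Prdx2*, which overlaps *Junb* by 173 exon bases on the opposite strand and is one of these neighbors, measured 458 CPM in that line and 183 to 327 CPM in the others. Whether the region or *Junb* alone accounts for the level of *Junb* was not tested.

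The neighbors of *Jund* had smaller shifts. In *Nf1*/*Cdkn2a* dKO line 2, where *Jund* was at 0.73, 77 of its 93 neighbors were higher (median 0.34, chromosome 0.26), and in *Nf1*/*p53* dKO line 2, with *Jund* at -0.55, 16 of 93 were (median -0.23, chromosome -0.20). In *Nf1*/*p53* dKO line 3 *Jund* was at 0.39 and its neighbors at -0.04.

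*Jun* was lower by 1.18 in *Nf1*/*p53* dKO line 3 (log2 difference -1.18), while its 9 neighbors had a median of 0.23. The 47 neighbors of *Fosl2* had medians between -0.05 and 0.11 in the 6 lines, while *Fosl2* ranged from -1.17 to 1.26. The 57 neighbors of *Fos* on chromosome 12 were lower in *Nf1*/*p53* dKO line 3, with a median of -0.83. The whole chromosome was at -0.66 in that line, and *Fos* was at -0.05. Around *Atf3* on chromosome 1, the 26 neighbors had a median of -0.38 in that line, the whole chromosome -0.72, and *Atf3* -0.89. The 35 neighbors of *Fosb* had medians between -0.17 and 0.21 in the 6 lines, while *Fosb* ranged from -1.41 to 1.12. Around *Fosl1*, the 134 neighbors had medians of -0.25, -0.40 and 0.00 in *Nf1*/*p53* dKO lines 1, 2 and 3. In *Nf1*/*Cdkn2a* dKO lines 1, 2 and 3 they were 0.28, -0.07 and 0.45, an order over the 6 lines unlike that of *Fosl1*. The whole of chromosome 19 had medians of -0.23, -0.31 and -0.06, and of 0.29, -0.10 and 0.38, in the same lines.

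**Figure D4:**
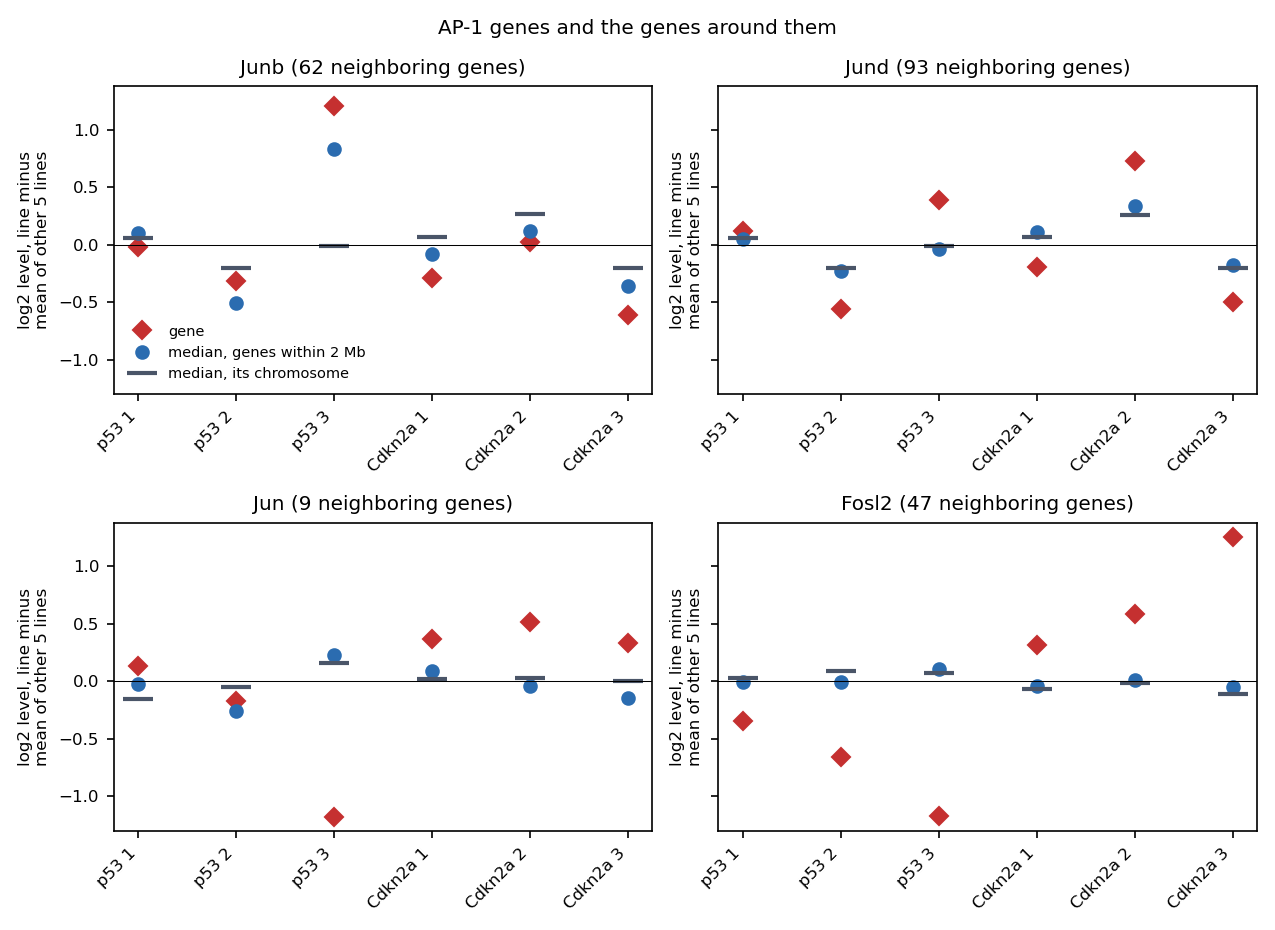
Log2(CPM + 1) of a line minus the mean of the other 5 lines (vertical axis) for 4 AP-1 genes (red diamonds), the median of the genes within 2 Mb (blue circles) and of the whole chromosome (gray bars), by line. In *Nf1*/*p53* dKO line 3 *Junb* was at 1.21 with its neighbors at 0.83, while *Jun* was at -1.18 with its neighbors at 0.23.

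Other bZIP genes that can join AP-1 dimers gave 1 call in 18 tested, where 1.8% of all genes were called, and DESeq2 on the 6 lines called 5, where it called 14.3% of all genes. *Mafk*, a small MAF protein, rose in *Nf1*/*Cdkn2a* dKO from 28.7, 33.7 and 24.7 CPM to 51.5, 61.4 and 60.3 CPM (log2 difference 0.99, SE 0.17, adjusted p = 0.047 in edgeR's test). The call was lost when any 1 of the 6 lines was left out (adjusted p = 0.0718 to 0.144), and also with raw total counts (0.0503) and with at least 10 counts in every line (0.0509). The median log2 difference of the 18 genes was -0.30. *Cebpd* measured 15.6, 12.0 and 5.05 CPM against 40.4, 96.1 and 116 CPM (log2 difference 2.95, adjusted p = 0.0528), and *Crem* had a log2 difference of 1.02 (adjusted p = 0.182), which was 0.60 without *Nf1*/*Cdkn2a* dKO line 3. *Atf4*, the effector of the amino acid response, measured 321, 321 and 453 CPM against 224, 212 and 177 CPM (log2 difference -0.84, adjusted p = 0.0785), and *Creb5* had -0.82 (adjusted p = 0.246). *Jdp2*, a repressor that pairs with JUN proteins and lies between *Fos* and *Batf* on chromosome 12, measured 29.5, 39.6 and 32.0 CPM against 27.1, 27.5 and 24.5 CPM (log2 difference -0.36, adjusted p = 0.272, and -0.21 without *Nf1*/*p53* dKO line 2).

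Of 24 regulators upstream of AP-1, all tested, 0 were called by edgeR, 2 had an unadjusted p under 0.05, and DESeq2 on the 6 lines called 2, against 1.8%, 22.4% and 14.3% of all genes. The median log2 difference was 0.08. *Mapk3*, which encodes ERK1, measured 95.8, 101 and 171 CPM against 229, 206 and 225 CPM (log2 difference 0.84, adjusted p = 0.117), and without *Nf1*/*p53* dKO line 3 it was called, at 1.17 (adjusted p = 0.038). *Elk3*, described above, had a log2 difference of 1.142 (adjusted p = 0.084). *Fbxw7*, a ubiquitin ligase subunit for JUN, had -0.39 (adjusted p = 0.268) and *Mrtfa*, a coactivator of SRF, -0.37 (adjusted p = 0.33).

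Other immediate early genes had mostly higher values in *Nf1*/*Cdkn2a* dKO, with 1 call in each direction among 23, against 0.638% of all genes called higher and 1.16% lower. *Ier5* rose from 66.0, 61.9 and 40.7 CPM to 134, 176 and 180.2 CPM (log2 difference 1.54, SE 0.23, adjusted p = 0.0396 in edgeR's test). *Egr1*, an early zinc finger factor of the same signals, fell from 87.2, 77.6 and 88.8 CPM to 52.3, 47.7 and 42.3 CPM (log2 difference -0.83, SE 0.14, adjusted p = 0.0465). Both calls were lost when any 1 line was left out (adjusted p of 0.0511 to 0.125 for *Ier5* and 0.0762 to 0.144 for *Egr1*). Lines did not overlap in 11 of 23 genes with higher and in 2 with lower values, against 14.8% and 16.6% of all genes. The median log2 difference was 0.80, and DESeq2 on the 6 lines called 11, against 14.3% of all genes. The highest and lowest values were those of *Nr4a3* (log2 difference 3.40, adjusted p = 0.157), *Btg2* (1.60, adjusted p = 0.0885), *Arc* (-2.47, adjusted p = 0.0627) and *Egr2* (-2.11, adjusted p = 0.205). *Nr4a3* rested on *Nf1*/*Cdkn2a* dKO line 3, with 40.7 CPM there and 0.55 to 4.38 CPM in the other lines, and its log2 difference was 1.45 without that line. That of *Egr2* was -1.09 without *Nf1*/*p53* dKO line 2, which had 19.4 CPM.

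Genes known as AP-1 targets gave 2 calls among 24, against 1.8% of all genes. *Mmp10*, a stromelysin, rose from 5.67, 1.29 and 0.86 CPM to 66.6, 369 and 195 CPM (log2 difference 6.33, SE 1.05, adjusted p = 0.0465 in edgeR's test). *Vegfa*, the angiogenic growth factor, fell from 172, 157 and 203 CPM to 70.5, 70.5 and 81.2 CPM (log2 difference -1.26, SE 0.15, adjusted p = 0.0272). With 1 line left out, *Mmp10* was called in 1 of 6 fits and *Vegfa* in 2 of 6, with adjusted p up to 0.125 and 0.124. Lines were apart in 9 of 24 genes with higher and in 1 with lower values, against 14.8% and 16.6% of all genes. The 9 included *Mmp1a*, *Mmp3*, *Mmp10* and *Mmp13*, which are all on chromosome 9 and were each counted separately. The scarce *Mmp1a* was barely apart, with up to 0.889 CPM in *Nf1*/*p53* dKO and down to 0.898 CPM in *Nf1*/*Cdkn2a* dKO lines (adjusted p = 0.375 in edgeR's test). The median log2 difference was 0.88, and DESeq2 on the 6 lines called 8, against 14.3% of all genes. *Mmp3*, a neighbor of *Mmp10* in the metalloproteinase cluster, measured 23.4, 10.3 and 5.71 CPM against 71.5, 591 and 593 CPM (log2 difference 4.99, adjusted p = 0.0554). *Mmp9* rested on 1 line, with 84.8 CPM in *Nf1*/*p53* dKO line 2 and 0.19 to 3.92 CPM elsewhere (log2 difference -5.00, adjusted p = 0.177), and its log2 difference was -1.45 without that line.

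**Figure D5:**
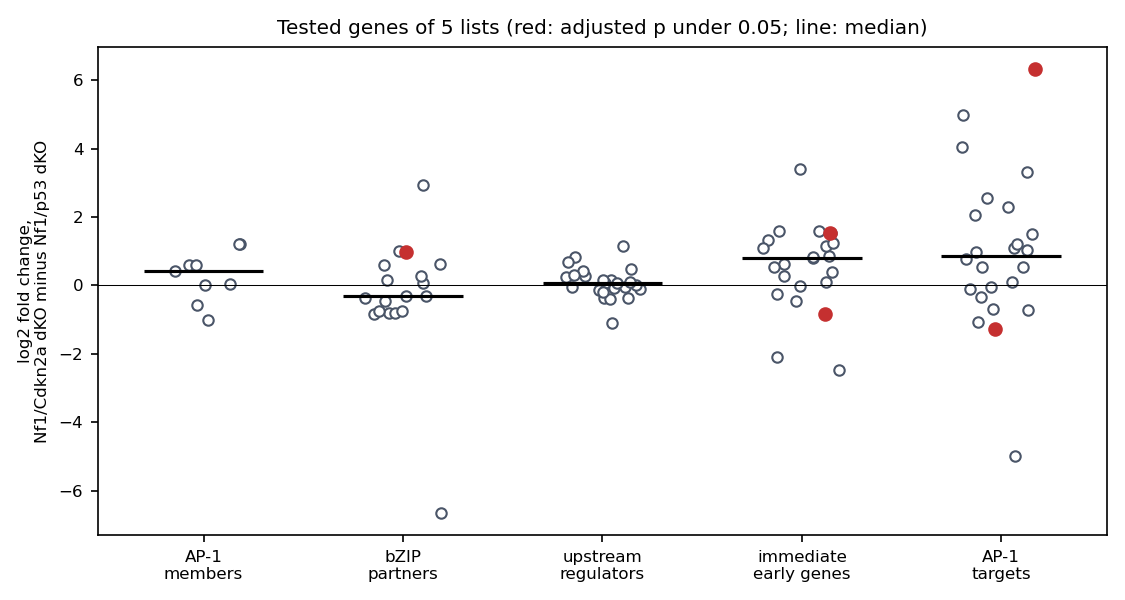
Log2 fold change of *Nf1*/*Cdkn2a* dKO over *Nf1*/*p53* dKO (vertical axis) for the tested genes of the AP-1 family and of 4 related lists, with the median of each as a line and red points for an adjusted p under 0.05. Medians were 0.42 for the family, -0.30 for bZIP partners, 0.08 for upstream regulators, 0.80 for immediate early genes and 0.88 for AP-1 targets, and 5 genes were called.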

How the data were processed

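RNA was measured in 18 libraries, 3 cultures of each of 6 cell lines, 3 lines per genotype. The authors deposited raw counts, that is unnormalized whole read numbers for each gene in each library. The submitters' processing notes name CASAVA, STAR 2.5, DESeq2 1.14.1 and GRCm38 (mm10). The counting tool and its use of strand are not given in the sources used here. Of 35275 gene identifiers, 34490 matched GENCODE M21 (GRCm38), which gave positions and exon lengths. Library totals were 19560535 to 28312207 counts (median 23149777), and a count of 0 allows up to 3 counts.

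The 3 cultures of each line were added up. After filterByExpr (minimum count 10, minimum total 15) and TMM scaling, genotypes were compared by the quasi-likelihood test of edgeR 4.0.16 under R 4.3.3, with Benjamini-Hochberg adjustment at 0.05. The alternatives used limma 3.58.1 and DESeq2 1.42.0. Lines within a genotype were compared with the same test on 18 cultures. Adjustment was over all tested genes, and the scripts were tested on simulated data. CPM are counts relative to the scaled library size. Python 3.11.15, numpy 2.4.6, pandas 2.3.3, scipy 1.17.1 and matplotlib 3.10.9 were used for the other values. Alternatives were other scalings, filters, tools and units of replication, blocks by line or by culture number, and single lines or cultures left out. The length without shared exon bases and the overlap counts under other scalings were chosen after the data had been seen, like the promoter motifs TGACATCA, TTACCTCA and TGACG and the window of 2 Mb.

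The family and the lists were chosen with earlier results of these data known. Of the lists, 139 of 140 genes were in the table. Named in the text are all 10 family genes, every called gene of 4 lists (bZIP partners, upstream regulators, immediate early genes, AP-1 targets), their 2 highest and 2 lowest log2 differences with a mean of at least 1 CPM, the 3 genes most like each member, the targeted genes and *Jdp2*. *Batf* could not be tested. Genes that overlap a member or mark other cell types were named besides, as were *Mmp1a* and *Mmp13*. Some of them, like *Prdx2*, *Ngfr*, *Itgax*, *Xcr1*, *Cd14*, *Cdh5*, *Mmp1a* and *Mmp13*, were named after their values were seen.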

Additional observations from a re-analysis of the deposited data

Results flagged for a closer look

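In *Batf3*, 1 *Nf1*/*Cdkn2a* dKO culture, culture 2 of line 2, stood apart from the other 8 of its genotype. It had 13 counts (0.561 CPM) where the others had 0 to 5, and its gap to the next culture was 0.587 of the range of the 9 cultures, above Dixon's 95% limit for 9 values. Of 18 groups of 9 cultures tested this was the only one past the limit. With 9 independent values chance flags about 1 group in 20. Each group here holds 3 cultures of each of 3 lines, so that rate does not strictly apply.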

How the results depend on the processing

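The test over all genes called 274 genes. It called 423 with raw total counts, 2171 with DESeq2 on the lines, 6096 and 6409 with edgeR and DESeq2 on the cultures, 2173 with limma-voom under a random line effect, and 0 to 172 with any 1 line left out. Treating the cultures as separate samples counts 3 cultures of 1 line as 3 lines. Family genes called numbered 0, and 1 with DESeq2 on the lines, 5 with edgeR and 5 with DESeq2 on the cultures, 3 with limma-voom, and 0 with any 1 line left out. Why DESeq2 and edgeR differ on *Fosl2* was not tested.

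The log2 difference of *Fos* turned to -0.14 with raw totals, -0.014 with at least 10 counts in every line, -0.0022 and -0.00099 with edgeR and DESeq2 on the cultures and -0.10 with limma-voom, and ran from -0.24 to 0.29 with 1 line left out. That of *Jund* turned to -0.080 with raw totals and ran from -0.31 to 0.26, and that of *Cdkn2a* from -0.18 to 0.81, with 1 line left out.

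Line numbers did not pair the samples (correlations of deviations -0.10, -0.13 and -0.08), nor did culture numbers (-0.06 to 0.09). Of the 6 lines, 0 were most like the line of their own number. With the line number as a block 0 genes were called and *Fos* was at -0.057. With the culture number as a block in limma-voom 2012 genes and 3 family genes were called and *Fos* was at -0.086. In the line tests no alternative moved a count by over 1.5 times. Counts of 25 to 154 per library for *Fos* and *Atf3* and of 0 to 14 for *Batf3* limit those genes most.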
